A study of Homo sapiens with 6 samples.

Results

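Pyruvate, the end product of glycolysis, is either reduced to lactate in the cytosol or carried into mitochondria and oxidized, and 10 genes that act at this branch were followed here. They encode the lactate dehydrogenase subunits (LDHA, LDHB), the kinases of the pyruvate dehydrogenase (PDH) complex (PDK1, PDK2, PDK3, PDK4), a phosphatase (PDP1) and a subunit (PDHA1) of that complex, and the mitochondrial pyruvate carrier (MPC1, MPC2). The genes, like the gene lists set beside them below, were listed by name, with earlier results of these data known. All 10 were found by symbol among the 60675 counted genes and among the 18075 genes tested. RNA was sequenced from PLC/PRF5 cells, a human hepatocellular carcinoma line, in 3 control libraries and 3 libraries with MTR4 knockdown (MTR4 KD). MTR4 is a helicase that feeds RNA to the nuclear exosome, and by the study's account its knockdown came from a doxycycline-induced shRNA in isogenic cells of this line. By that account the cells were compared without and with doxycycline, and no library of doxycycline-treated scramble cells was analysed here. Drug and knockdown therefore cannot be told apart from these libraries alone. In scramble cells the study reports no effect of doxycycline on the glycolytic genes it measured. All libraries come from 1 cell line. No source used here says whether the replicates were separate cultures, so p-values measure the spread between these libraries, which may be technical.

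Each library held between 60686786 and 72708682 reads counted on genes, and the genes at the pyruvate branch had at least 818 reads in every library. The MTR4 gene, MTREX, was at 72.2, 87.4 and 74.4 CPM (the gene's read count relative to the TMM-adjusted total of its library) in the control libraries and at 44.6, 48.8 and 44.1 CPM in the MTR4 KD libraries, so the labelled knockdown was seen in every library. The 12 hepatocyte markers summed to between 24370 and 26370 CPM per library. After the knockdown 4 of them were called higher and 0 lower, beside 1.48% and 2.12% of all genes tested. The summed endothelial markers reached at most 0.571 CPM and the fibroblast markers 14.6 CPM. No marker of these lists was at 0 in all libraries. The leukocyte markers summed to 31.2 to 36.5 CPM in control and 26.9 to 29.4 CPM in MTR4 KD libraries. The epithelial markers summed to 1942 to 2181 CPM in control and 1754 to 1790 CPM in MTR4 KD libraries. Of 4 epithelial markers 1 was called lower, beside 2.12% of all genes tested. The part of these differences in the results was not tested. The libraries also differed in the share of reads that aligned to several places. This share was 34.7% to 37.5% in MTR4 KD replicate 3 and control replicates 1 and 3, and 14.8% to 18.2% in control replicate 2 and MTR4 KD replicates 1 and 2. These sets are called library batches here, although the labels name no batch, and differences within them are given beside the results. Each such difference rests on 1 library on 1 side, MTR4 KD replicate 3 or control replicate 2, so it has no replication there.

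The branch point is controlled at several steps. The LDHA subunit is known for favouring the formation of lactate, whereas LDHB favours the reverse reaction. The carrier, a heterodimer of MPC1 and MPC2, brings pyruvate through the inner mitochondrial membrane, where the PDH complex converts it to acetyl-CoA. PDK enzymes phosphorylate the E1 alpha subunit PDHA1 and so switch the complex off, and PDP enzymes remove the phosphate. LDHA and PDK1 are textbook targets of the hypoxia-inducible factor HIF1, and PDK4 is known as a gene of fasting and of fatty acid use.

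Because LDHA and PDK1 are known for hypoxia response elements, a promoter window is shown for each of the 4 genes whose level changed, LDHA, PDK1, PDK4 and PDK2, to let their sequences be compared. For genes with several windows the one with the most matches is shown. RefSeq promoter windows on GRCh38.p14, from 250 bases before to 50 bases after a start site, were found for 9 of the 10 genes, all but PDP1, with 15 windows in all. The windows were searched on both strands for ACGTG and GCGTG, the forms of the core of the hypoxia response element, and for the E-box CACGTG, which contains ACGTG and reads alike on both strands. Capitals mark every match to ACGTG or GCGTG, where CACGT and CACGC are matches on the other strand. The LDHA window is at chr11:18394313-18394612 (plus strand), the PDK1 window at chr2:172555840-172556139 (plus strand), the PDK4 window at chr7:95596467-95596766 (minus strand) and the PDK2 window at chr17:50095101-50095400 (plus strand).
LDHA: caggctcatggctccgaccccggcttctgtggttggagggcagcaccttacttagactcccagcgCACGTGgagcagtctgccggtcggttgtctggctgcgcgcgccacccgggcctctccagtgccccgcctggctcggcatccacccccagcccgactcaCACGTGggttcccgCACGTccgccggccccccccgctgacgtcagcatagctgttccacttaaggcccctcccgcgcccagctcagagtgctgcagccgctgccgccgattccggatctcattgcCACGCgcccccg
PDK1: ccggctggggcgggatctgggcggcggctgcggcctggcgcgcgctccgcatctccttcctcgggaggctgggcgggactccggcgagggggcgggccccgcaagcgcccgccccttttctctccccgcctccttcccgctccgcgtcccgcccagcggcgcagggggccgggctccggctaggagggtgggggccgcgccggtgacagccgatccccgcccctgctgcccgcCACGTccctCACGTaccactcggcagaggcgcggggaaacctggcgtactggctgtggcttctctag
PDK4: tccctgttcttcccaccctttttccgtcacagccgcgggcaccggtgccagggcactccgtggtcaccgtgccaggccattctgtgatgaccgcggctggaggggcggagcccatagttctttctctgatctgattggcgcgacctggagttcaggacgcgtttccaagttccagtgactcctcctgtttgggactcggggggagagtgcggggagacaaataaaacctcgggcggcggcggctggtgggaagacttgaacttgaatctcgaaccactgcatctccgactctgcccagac
PDK2: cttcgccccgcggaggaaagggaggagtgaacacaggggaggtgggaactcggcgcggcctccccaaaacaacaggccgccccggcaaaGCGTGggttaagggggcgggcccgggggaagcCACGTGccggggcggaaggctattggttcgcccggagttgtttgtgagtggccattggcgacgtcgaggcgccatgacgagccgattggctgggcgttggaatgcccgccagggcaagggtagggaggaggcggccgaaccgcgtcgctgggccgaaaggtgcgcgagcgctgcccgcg

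The LDHA window held 4 separate stretches, which began 185, 87 and 73 bases before the start site and 38 bases after it, and 2 of them were E-boxes. The PDK1 window held a stretch 17 and another 8 bases before the start site, both of the ACGTG form. The PDK2 window held stretches 161 and 129 bases before the start site, the latter an E-box. The single PDK4 window held none. The PDK1 and PDK2 windows that are not shown also held none, and the LDHA window not shown held 1 stretch. Of the 15 windows, 4 held ACGTG (1 each of LDHA, PDK1, PDK2 and PDK3), 9 held GCGTG, 10 held either form and 2 held the E-box. The MPC2 windows at chr1:167937020-167937319 and chr1:167937023-167937322 overlap and hold the same GCGTG match, which is counted for each. Of all 35116 promoter windows of this length, 21.4% held ACGTG, 36.5% held GCGTG, 48.4% held either form and 7.26% held the E-box. These shares were not matched for base content, although both forms contain CG. The windows shown were 70% (LDHA), 77% (PDK1), 60.7% (PDK4) and 69.7% (PDK2) G or C. A match of letters is a description and not a site of binding.

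**Figure D1:**
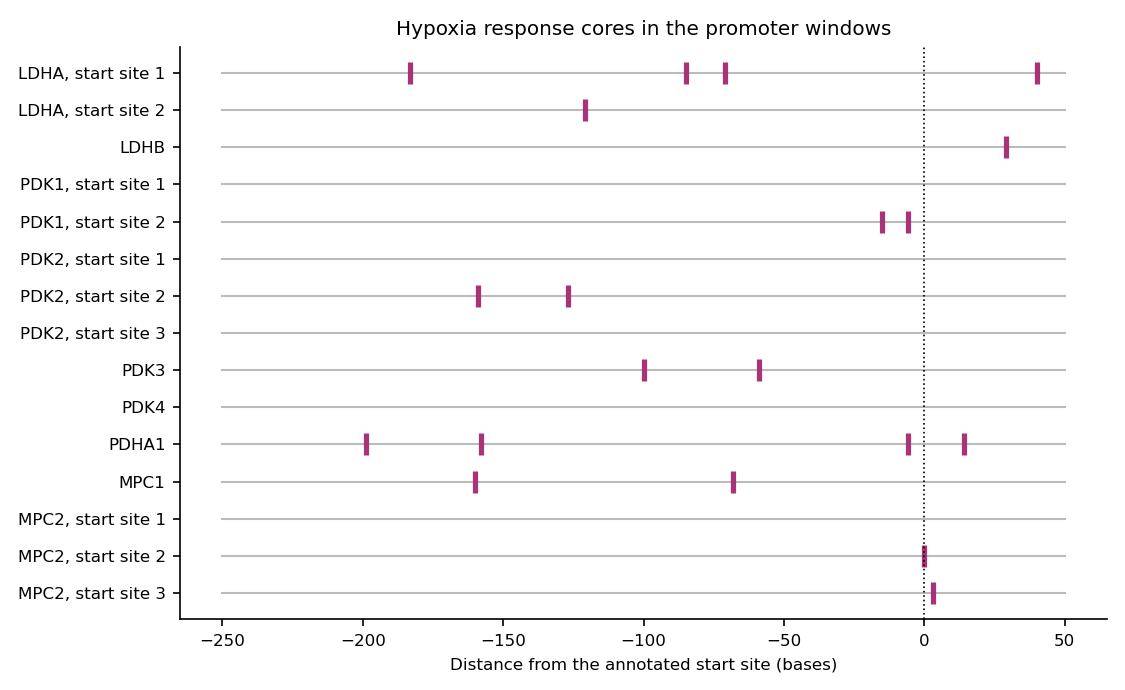
Positions of ACGTG and GCGTG matches in the 15 RefSeq promoter windows of 9 genes. The x axis gives the distance from the annotated start site in bases, each grey line is a window and each bar a stretch of matches. The first LDHA window holds 4 stretches and the PDK4 window none.

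After MTR4 knockdown, LDHA, PDK1 and PDK4 fell and PDK2 rose, whereas no change was called for LDHB, PDK3, PDHA1, PDP1, MPC1 and MPC2. With an adjusted p-value under 0.05 in edgeR's quasi-likelihood test over all genes, 4 of the 10 genes were called, against 3.60% of all genes tested. The 3 genes called lower stand beside 2.12% of all genes and the 1 called higher beside 1.48%. None of the 10 had a fold change over 2, and 0.830% of all genes passed that threshold as well. At an unadjusted p under 0.05, 5 genes would be counted, the fifth being MPC2, beside 18.8% of all genes, and DESeq2's Wald test also called 5, beside 7.54%. The median log2 fold change was -0.04 over the 10 genes and 0.01 over all genes tested.

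LDHA (ENSG00000134333, chromosome 11 from 18394563 to 18408425 on GRCh38) was at 1831, 1920 and 1822 CPM in control replicates 1, 2 and 3. It was at 1250, 1235 and 1147 CPM in MTR4 KD replicates 1, 2 and 3. Every MTR4 KD library lay below every control library, and the gap between the groups was wider than the range of either group. The mean went from 1858 ± 54.3 to 1211 ± 55.5 CPM (SD, n = 3 each), so LDHA fell by 34.8% (log2 fold change -0.62, 95% interval -0.76 to -0.47, adjusted p = 0.00328). In RNA from whole cultures, less of a transcript in each cell and fewer cells that hold it cannot be told apart. The log2 difference was -0.67 within the batch with more and -0.63 within the batch with fewer multiply aligned reads. The call held with each library left out in turn (adjusted p between 0.00381 and 0.0287).

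LDHB (ENSG00000111716, chromosome 12 from 21635342 to 21657842) was at 977.9, 1165 and 990.1 CPM in the control libraries. In the MTR4 KD libraries it was at 1078, 1123 and 904.0 CPM. The highest library was a control and the lowest an MTR4 KD library, and the groups overlapped. The mean was 1044 ± 105 and 1035 ± 116 CPM (SD, n = 3 each), a log2 fold change of -0.01 (95% interval -0.26 to 0.24, adjusted p = 0.962). In both groups the higher LDHB values came from the libraries with fewer multiply aligned reads, and within the batches the log2 differences were -0.12 and -0.08. When the batch was added to the model the value was -0.10 (adjusted p = 0.109). The 9 annotated pseudogenes of LDHA and LDHB together with those of PDHA1 and PDK1 received at most 0.0271% of their parent gene's reads in any library. Reads that aligned to several places were counted on no gene, so these values do not cover reads shared with a pseudogene.

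**Figure D2:**
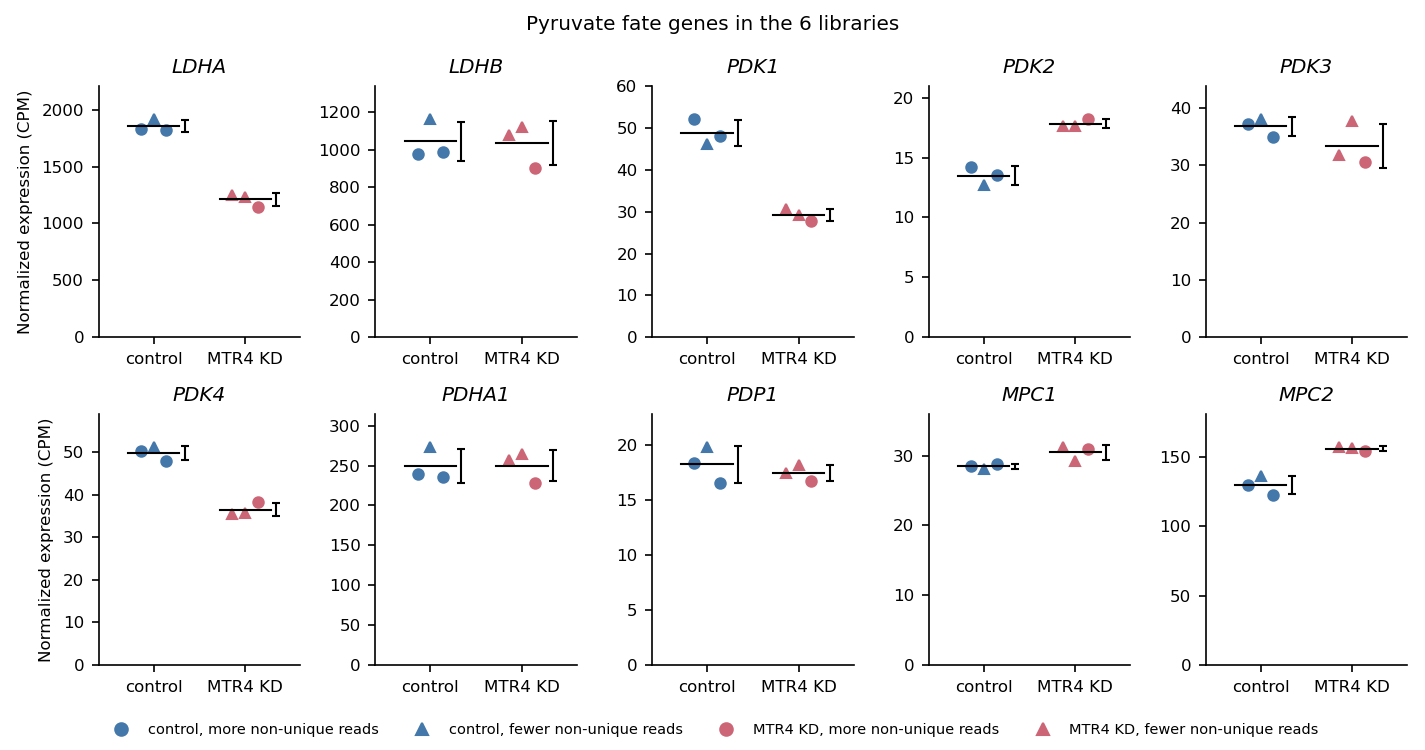
Normalized expression in CPM (y axis, from 0) of the 10 genes in control and MTR4 KD libraries. Each point is a library, circles and triangles mark the batches with more and fewer multiply aligned reads, lines are means and bars are SD (n = 3). LDHA, PDK1 and PDK4 are lower and PDK2, MPC1 and MPC2 higher in every MTR4 KD library than in any control library.

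Between LDHA and LDHB the balance shifted toward LDHB. Reads per kilobase of exon were compared within each library, so that scaling between libraries drops out. LDHA made up 48.1%, 44.9% and 47.7% of the summed LDHA and LDHB signal in the control libraries. It made up 36.5%, 35.2% and 38.6% in the MTR4 KD libraries. The groups did not overlap, and the mean share was 46.9% ± 1.72 in control and 36.8% ± 1.69 in MTR4 KD libraries (SD, n = 3 each). The difference of -10.1 percentage points had p = 0.1 in the exact two-sided permutation test, the smallest value that 3 against 3 libraries can give, and 0.12 after adjustment over the 6 within-library quantities of this kind. Within the batches the difference was -9.30 and -9.07 percentage points. The share itself rests on the length given to each gene, and with the length of the longest transcript it was 55.0% in control and 44.6% in MTR4 KD libraries.

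PDK1 (ENSG00000152256, chromosome 2 from 172555373 to 172724312) had the largest log2 fold change of the 10 genes. It encodes a PDH kinase that HIF1 is known to induce. Its level was 52.2, 46.3 and 48.1 CPM in the control libraries and 30.7, 29.2 and 27.9 CPM in the MTR4 KD libraries. All MTR4 KD libraries lay below all control libraries. The mean went from 48.9 ± 3.05 to 29.3 ± 1.42 CPM (SD, n = 3 each), so PDK1 fell by 40.1% (log2 fold change -0.74, 95% interval -0.91 to -0.57, adjusted p = 0.00317). The log2 difference was -0.84 within the batch with more and -0.62 within the batch with fewer multiply aligned reads. The call held with each library left out (adjusted p between 0.00425 and 0.0335). An antisense gene, PDK1-AS1, covers 445 exon bases (3.00%) of PDK1 and had only 5 to 20 reads per library.

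PDK4 (ENSG00000004799, chromosome 7 from 95583499 to 95596516), the kinase gene of fasting, fell as well. It was at 50.3, 51.4 and 47.9 CPM in the control libraries and at 35.5, 35.8 and 38.3 CPM in the MTR4 KD libraries. The groups did not overlap. The mean went from 49.9 ± 1.76 to 36.5 ± 1.54 CPM (SD, n = 3 each), so PDK4 fell by 26.8% (log2 fold change -0.45, 95% interval -0.60 to -0.30, adjusted p = 0.0122). Within the batches the log2 difference was -0.36 with more and -0.52 with fewer multiply aligned reads. The call was lost when control replicate 1 or 3 or MTR4 KD replicate 1 or 2 was left out, with log2 fold changes between -0.43 and -0.48 and an adjusted p of up to 0.0934.

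PDK2 (ENSG00000005882, chromosome 17 from 50094737 to 50112152), a widely expressed PDH kinase, moved the other way. It was at 14.2, 12.7 and 13.6 CPM in the control libraries and at 17.7, 17.6 and 18.3 CPM in the MTR4 KD libraries. Every MTR4 KD library lay above every control library. The mean went from 13.5 ± 0.760 to 17.9 ± 0.346 CPM (SD, n = 3 each), a rise of 32.2% (log2 fold change 0.40, 95% interval 0.22 to 0.58, adjusted p = 0.0369). The log2 difference was 0.38 and 0.46 within the batches with more and with fewer multiply aligned reads. The call was near the threshold and was lost when any of the 6 libraries was left out, with log2 fold changes between 0.36 and 0.44 and adjusted p between 0.0605 and 0.158. When the batch was added to the model the adjusted p was 0.000528. SAMD14, on the opposite strand, covers 38.6% of the PDK2 exon bases and had 11 to 44 reads per library.

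PDK3 (ENSG00000067992, chromosome X from 24465286 to 24550466), the remaining kinase gene, was at 37.3, 38.2 and 34.99 CPM in the control libraries and at 31.9, 37.8 and 30.7 CPM in the MTR4 KD libraries. MTR4 KD replicate 2 lay among the control libraries and the other MTR4 KD libraries below them. The log2 fold change was -0.14 (95% interval -0.36 to 0.08, adjusted p = 0.480).

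**Figure D3:**
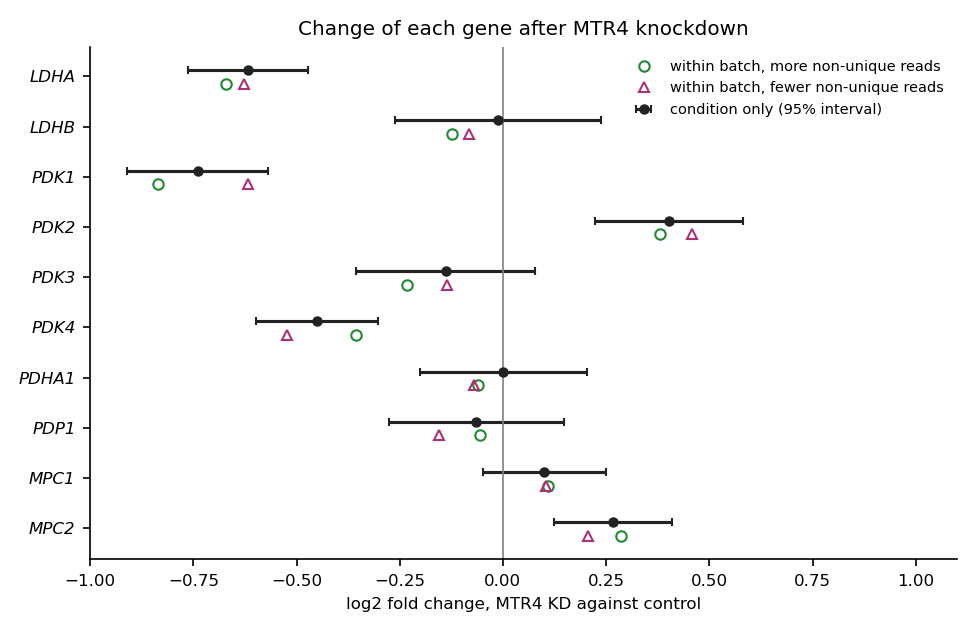
log2 fold change of each gene in MTR4 KD against control libraries (x axis). Black points with bars are the values and 95% intervals of the fit with condition as its only term, and open symbols are the differences within the batches with more (circles) and fewer (triangles) multiply aligned reads. For LDHA, PDK1, PDK2, PDK4 and MPC2 the interval lies on 1 side of 0.

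The make-up of the kinase transcripts differed between the groups. In the control libraries PDK4 held 57.3%, 59.7% and 57.7% of the reads per kilobase of the 4 PDK genes, and in the MTR4 KD libraries 52.3%, 51.7% and 54.7%. The PDK1 share was 17.5% ± 0.905 in control and 13.0% ± 0.833 in MTR4 KD libraries (SD, n = 3 each). The PDK2 share went up, from 13.1% ± 0.719 to 21.5% ± 0.281 (SD, n = 3 each), and exceeded the PDK1 share in every MTR4 KD library and in no control library. The PDK3 share was 11.2% ± 0.306 and 12.6% ± 1.44 (SD, n = 3 each), with overlapping groups. For the PDK1, PDK2 and PDK4 shares the groups did not overlap, and the exact permutation test gave p = 0.1 (0.12 adjusted). For PDK3 the exact test gave p = 0.2.

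The order of the kinases rests on the gene lengths used, which came from an annotation that may differ from the one the reads were counted on. The union of annotated exons is 17456 bases for PDK3, whereas its canonical transcript has 1741 bases. With canonical lengths PDK3 held 49.8% of the kinase signal in control and 52.2% in MTR4 KD libraries, and PDK2 exceeded PDK1 in both groups (9.46% and 8.18% in control, 14.5% and 5.67% in MTR4 KD libraries). The PDK1 and PDK4 shares were lower and the PDK2 share higher in MTR4 KD libraries with union, longest and canonical lengths alike.

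**Figure D4:**
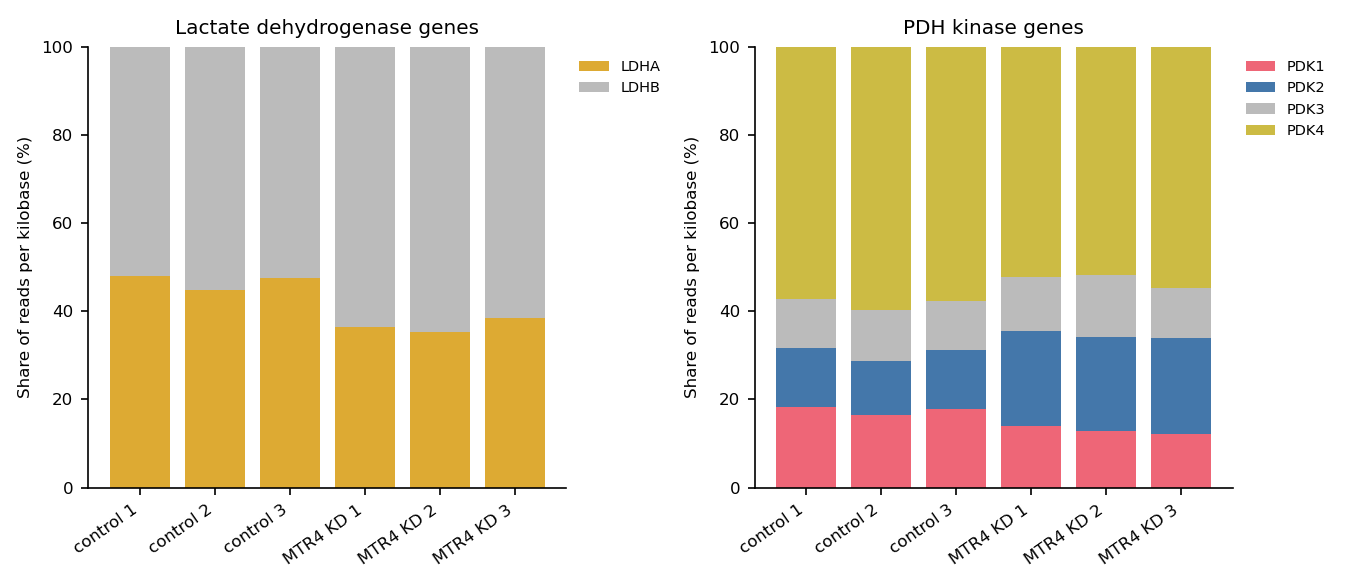
Share of reads per kilobase of exon (y axis, in percent) that each gene held in each library, for LDHA and LDHB (left) and for the 4 PDK genes (right). The LDHA share was 46.9% on average in control and 36.8% in MTR4 KD libraries, and the PDK2 share 13.1% and 21.5%.

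PDP1 (ENSG00000164951), a phosphatase that reactivates the PDH complex, ranged from 16.6 to 19.9 CPM in the control libraries and from 16.8 to 18.2 CPM in the MTR4 KD libraries. The groups overlapped, with a log2 fold change of -0.06 (95% interval -0.28 to 0.15, adjusted p = 0.756). Its paralog PDP2 was at 26.1 ± 2.88 and 31.3 ± 2.48 CPM (SD, n = 3 each), a log2 fold change of 0.26 (adjusted p = 0.234). The ratio of the summed reads per kilobase of the kinase genes to those of PDP1 and PDP2 was 3.01, 2.67 and 3.15 in the control libraries. It was 2.07, 2.14 and 2.37 in the MTR4 KD libraries. The groups did not overlap, and the mean ratio was 2.94 ± 0.247 and 2.20 ± 0.158 (SD, n = 3 each, exact permutation p = 0.1, 0.12 adjusted). Within the batches with more and fewer multiply aligned reads the difference in this ratio was -0.704 and -0.560. The level of the ratio rests on the lengths, and with canonical lengths it was 5.29 in control and 4.26 in MTR4 KD libraries.

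PDHA1 (ENSG00000131828, chromosome X from 19343927 to 19361718), the subunit that the kinases phosphorylate, was at 239.5, 274.0 and 236.0 CPM in the control libraries. It was at 257.7, 264.3 and 228.1 CPM in the MTR4 KD libraries. The groups overlapped. The log2 fold change was 0.00 (95% interval -0.20 to 0.20, adjusted p = 0.996), and -0.06 when the batch was added to the model (adjusted p = 0.281). MAP3K15 covers 19.3% of the PDHA1 exon bases on the opposite strand and was at 29.4 ± 0.625 and 29.0 ± 1.97 CPM (SD, n = 3 each), and how reads in the shared part were divided was not tested.

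The carrier genes were higher in every MTR4 KD library than in any control library, although neither was called. MPC2 (ENSG00000143158, chromosome 1 from 167916675 to 167937072) was at 130.1, 136.1 and 122.8 CPM in the control libraries and at 157.5, 156.4 and 154.2 CPM in the MTR4 KD libraries. The groups did not overlap, and the mean went from 129.7 ± 6.62 to 156.0 ± 1.69 CPM (SD, n = 3 each). The log2 fold change was 0.27 (95% interval 0.12 to 0.41, adjusted p = 0.0666), and 0.25 when the batch was added to the model, where it was called (adjusted p = 0.00129). DCAF6 covers 21.8% of the MPC2 exon bases on the opposite strand and was at 126.3 ± 7.64 and 123.4 ± 11.7 CPM (SD, n = 3 each).

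MPC1 (ENSG00000060762, chromosome 6 from 166364919 to 166382940) ranged from 28.1 to 28.8 CPM in control and from 29.3 to 31.3 CPM in MTR4 KD libraries. The groups did not overlap, but the log2 fold change was only 0.10 (95% interval -0.05 to 0.25, adjusted p = 0.455). The transcript that starts divergently from its promoter, MPC1-DT, had 9 to 22 reads per library. In all, 6 of the 10 genes did not overlap between the groups, 3 lower and 3 higher, beside 24.7% of all genes tested.

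Per kilobase of exon, the 10 genes spanned a wide range of levels in the control libraries, given here with union exon lengths. LDHB stood at 350.1 ± 35.2 and LDHA at 308.3 ± 9.02 RPKM (CPM per kilobase of exon, SD, n = 3), an order that turned with the length of the longest transcript. PDHA1 (50.4 ± 4.24) and MPC2 (49.2 ± 2.51) followed, with overlapping libraries, then MPC1 (18.5 ± 0.221) and PDK4 (10.97 ± 0.387). PDK1 (3.29 ± 0.205) and PDP1 (3.26 ± 0.298) overlapped, and PDK2 (2.47 ± 0.139) and PDK3 (2.11 ± 0.0938) were lowest. With the longest transcript PDK2 (4.02) stood above PDK1 (3.47), and with canonical lengths PDK3 (21.2) stood above PDK4 (13.9). With union lengths, PDK2 (3.26 ± 0.0633) stood above PDK1 (1.97 ± 0.0959) in the MTR4 KD libraries.

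A model that also held the library batch was fitted, since the biological coefficient of variation was 0.175 with condition alone and 0.0573 with the batch. It called 5 of the 10 genes, the 4 named above and MPC2, but 20.2% of all genes. LDHA, PDK1 and PDK4 were again lower, beside 10.8% of all genes, and PDK2 and MPC2 higher, beside 9.43%. The log2 fold changes in this fit were -0.65 for LDHA, -0.74 for PDK1, -0.45 for PDK4 and 0.43 for PDK2.

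None of the other genes of the PDH complex was called. Of 10 listed subunits, phosphatase and lipoylation genes 9 were tested, and 0 were called by edgeR, DESeq2 or limma-voom, with 3 at an unadjusted p under 0.05, a threshold that 18.8% of all genes passed. Their median log2 fold change was 0.01. DLAT, the E2 subunit, was at 146.0 ± 4.25 and 131.0 ± 4.04 CPM (SD, n = 3 each, log2 fold change -0.16, adjusted p = 0.208). DLD, the E3 subunit, was at 156.7 ± 4.18 and 173.9 ± 7.96 CPM (SD, n = 3 each, log2 fold change 0.15, adjusted p = 0.246). For PDHB, the E1 beta subunit, and PDHX the log2 fold changes were -0.08 and -0.01. When the batch was added to the model, DLAT was called lower and DLD and PDP2 higher, beside 10.8% and 9.43% of all genes. Of 9 genes of the related 2-oxoacid dehydrogenase complexes 8 were tested, and 0 were called by edgeR, DESeq2 or limma-voom, with 1 at an unadjusted p under 0.05. The median of these 8 was 0.15.

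The other listed enzymes of lactate and pyruvate gave 1 call among 10 tested genes, beside 3.60% of all genes. PC, the carboxylase that turns pyruvate into oxaloacetate, was at 99.2, 91.2 and 105.6 CPM in the control libraries and at 76.0, 76.0 and 74.0 CPM in the MTR4 KD libraries. It was lower in every MTR4 KD library, and the log2 fold change of PC was -0.39 (95% interval -0.55 to -0.23, adjusted p = 0.0306). The log2 fold changes of the alanine aminotransferase genes GPT and GPT2 were 0.35 and -0.06, and those of the malic enzyme genes ME1, ME2 and ME3 were -0.02, -0.08 and -0.34. Of these, GPT was called higher once the batch was in the model (0.53, adjusted p = 0.000266). The other lactate dehydrogenase genes LDHC, LDHAL6A and LDHAL6B reached at most 0.554 CPM in any library, whereas LDHD, which acts on D-lactate, was at 9.36 ± 0.638 and 10.4 ± 0.943 CPM (SD, n = 3 each). Of 6 plasma membrane carrier genes 1 was called, beside the same 3.60% of all genes. SLC16A3, the lactate exporter MCT4, was at 5.18 ± 0.721 and 1.98 ± 0.309 CPM (SD, n = 3 each, log2 fold change -1.38, adjusted p = 0.00728). For SLC16A1, the more abundant MCT1, the log2 fold change was -0.02 (adjusted p = 0.921), and for BSG, the chaperone of these carriers, it was -0.35 (adjusted p = 0.116). BSG was called lower once the batch was in the model (-0.28, adjusted p = 0.00177) and with the replicate block (adjusted p = 0.0437).

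Lists of genes known to respond to hypoxia and to fasting were set beside the kinase genes. Both lists were chosen with earlier results of these data known, so their counts are a description and no independent evidence. Of 20 hypoxia targets 12 were called lower and 0 higher, beside 2.12% and 1.48% of all genes. Their median log2 fold change was -0.48, against 0.01 for all genes. At an unadjusted p under 0.05, 15 passed, beside 18.8% of all genes, and DESeq2's Wald test called 14 (7.54% of all genes) and limma-voom 12 (3.38%). The largest falls among those called were in CA9, EGLN3 and DDIT4, with log2 fold changes of -2.76, -1.46 and -1.45. The glucose transporter gene SLC2A1 (GLUT1) and the glycolysis genes PGK1, PFKFB3, PFKFB4 and ALDOA were also among those called. Their log2 fold changes were -0.72, -0.52, -0.36, -0.73 and -0.84. The 8 targets not called included VEGFA, BNIP3, EGLN1, P4HA2 and the glycolysis gene ENO1. Whether the list moved with hypoxia or with glycolysis was not tested. Of 15 targets of the fatty acid receptor PPAR alpha and of fasting, 13 were tested. Of the 13, 2 were called higher and 0 lower, beside 1.48% and 2.12% of all genes. EHHADH, an enzyme of peroxisomal fatty acid oxidation, was among those called higher. It went from 43.4 ± 4.67 to 68.2 ± 5.30 CPM (SD, n = 3 each), and its log2 difference was 0.65 (adjusted p = 0.0152). The median over this list was 0.14. When the batch was added to the model 3 of these genes were called lower and 6 higher, beside 10.8% and 9.43% of all genes. By their means 6 of the 13 genes were lower and 7 higher in MTR4 KD libraries. In all MTR4 KD libraries 4 lay below and 4 above every control library, the groups of the other 5 overlapping. Of all genes tested, 24.7% did not overlap between the groups.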

How the data were processed

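RNA-seq of control and MTR4 KD PLC/PRF5 cells was analysed from gene counts, with 3 libraries per group taken from the labels. The authors deposited raw read counts per Ensembl gene for each library. The submitters' processing notes name HISAT2 2.1.0, HTSeq, DESeq2 and the GRCh38 build. The study's methods name an Ensembl release for read mapping, under its splicing analysis, while the release and strand setting used for gene counting are not given in the sources used here. Summary classes that name no gene (37.8% to 49.3% of entries) were kept out of library sizes and tests.

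Genes were filtered with edgeR's filterByExpr (minimum count 10), scaled by TMM and tested with the quasi-likelihood F-test in edgeR 4.0.16 (R 4.3.3) with condition as the only term. p-values were adjusted by Benjamini-Hochberg over 18075 genes, and genes were called at an adjusted p under 0.05. The scripts were tested on simulated data. Shares and ratios within a library used reads per kilobase of the union of exons and a two-sided exact permutation test. Lengths came from GENCODE 44 gene models lifted to GRCh37, gene positions and promoters from RefSeq on GRCh38. Library batches were set by a share of multiply aligned reads over 30%. The members and lists were chosen with earlier results of these data known. Genes named are the 10 members, MTREX, called genes of the pyruvate lists or genes that complete a described group, and, for the 2-oxoacid, hypoxia and fasting lists, up to 3 called genes per direction by fold change. BSG, DLAT, DLD, PDP2, GPT, ME3 and overlapping genes complete such groups. So do the glucose transporter and glycolysis genes of the hypoxia list and the genes named there as not called. Alternatives were DESeq2 1.42.0 (size factors and Wald test), limma-voom (limma 3.58.1), other filters, total-count scaling, thinned counts, a library batch term, a replicate block, each library left out, and other gene lengths, of which the canonical transcript was chosen after seeing the data. The values of 1 gene of the fasting list are not reported here.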

Additional observations from a re-analysis of the deposited data

How the results depend on the processing

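Over all genes, 650 were called, against 1363 with DESeq2's Wald test, 3649 with the library batch as a covariate, 137 to 803 with 1 library left out and 150 with a fold change over 2 required. Of the 10 genes at the pyruvate branch 4 were called, against 2 to 4 with 1 library left out and 0 with a fold over 2. Of the 71 genes in the other pyruvate, 2-oxoacid, hypoxia and fasting lists, not all of them tested, 16 were called. Hypoxia targets made up 12 of these 16. The count was 33 with the library batch, 7 to 17 with 1 library left out and 5 with a fold over 2. LDHA and PDK1 kept their direction and call under all 15 alternative fits. PDK2 kept its direction under all 15 and lost its call in 7, those without 1 library each and the fit with no low-count filter (log2 fold change 0.39, adjusted p = 0.0511). PDK4 lost its call in 4. MPC2, not called, was called by DESeq2 (adjusted p = 0.00705), with the library batch, and without control replicate 2 (log2 fold change 0.30, adjusted p = 0.0497). LDHB and PDHA1, both near 0, changed sign. LDHB ranged from -0.0796 to 0.0776 with 1 library left out, with 0.0679 without control replicate 2 and 0.0776 without MTR4 KD replicate 3. PDHA1 was at -0.00775 with no low-count filter, -0.00134 with a filter of 1 CPM, -0.0648 with the library batch and -0.00154 with thinned counts, and ranged from -0.0444 to 0.0675 with 1 library left out. The cause was not tested.

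With canonical transcript lengths, the difference between the groups was -2.50 percentage points for the PDK1 share (-4.47 with union lengths), 5.02 for the PDK2 share (8.39) and -1.02 for the kinase to phosphatase ratio (-0.745), and with the longest transcript 9.77 for the PDK2 share. Within the batches with more and fewer multiply aligned reads it was -5.77 and -3.06 for the PDK1 share and -2.79 and -7.75 for the PDK4 share, and 9.13 for the PDK2 share in the batch with fewer. With 1 library left out, the PDK1 share differed by -4.98 to -4.07, the PDK2 share by 7.98 to 8.62 and the PDK4 share by -6.26 to -4.61 percentage points.

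Deviations of same-numbered libraries correlated at -0.413, 0.4999 and 0.526 for replicates 1, 2 and 3. The libraries of replicate 1 lay in different batches and those of replicates 2 and 3 in the same batch. Whether replicate numbers pair the libraries therefore cannot be told from these values. The biological coefficient of variation was 0.125 with a replicate block and 0.175 with condition alone. With a replicate block, 4 of the 10 genes and 857 of all genes were called. Each of the 10 genes had at least 818 reads per library.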
